A study of Homo sapiens with 6 samples.

Results

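The genes that fold, export and dispose of proteins in the endoplasmic reticulum (ER), together with the sensors of the unfolded protein response, were compared between 2 forms of Ju77, a human malignant mesothelioma cell line. The set held 33 genes chosen by symbol for their place in this system: chaperones of the Hsp70 and Hsp90 type and their partners, the lectins calreticulin and calnexin, disulphide isomerases and oxidases, prolyl isomerases, secreted stress factors, degradation factors, stress sensors, and parts of the machinery that brings proteins into the ER and sends them on. All 40 probes named for them were taken, out of 47225 on the array. They covered 32 of the 33 genes, 8 of them with 2 probes each, and no probe was named for HERPUD1. A probe counts as detected where its deposited detection p-value was under 0.05, and it was tested where it was detected on all arrays of at least 1 group. By that rule 32 probes of 27 genes were tested, within 10672 tested genes in all.

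One group was Ju77 cells resistant to ADI-PEG20, pegylated arginine deiminase, which strips arginine from the medium, and the other was parental Ju77 cells, with 3 arrays each. RNA was taken on the day after plating and read on Illumina expression arrays. The sources used here give neither drug exposure at harvest nor the origin of the replicates, and p-values reflect spread that may be technical only. By its titles each group is a single line, and resistance cannot be told apart from other differences between the lines. Between 19024 and 20113 probes were detected per array. Correlations between arrays ran from 0.993 to 0.996 within groups and from 0.962 to 0.965 between them. Of 10 mesothelial markers with a probe, 6 were detected on all parental arrays and 5 on all resistant arrays, and KRT5 and ITLN1 on none. The levels of these markers differed between the groups. CALB2 was higher in the resistant cells by 2.74 in normalised log2 intensity (limma adjusted p = 1.87e-06). PDPN, LRRN4 and BNC1 were lower, at -2.38, -0.79 and -0.61 (limma adjusted p from 5.05e-05 to 0.00182). MSLN and WT1 did not pass the threshold of 0.05. Of leukocyte markers CD68 alone was detected on all arrays, TIE1 of the endothelium on all parental arrays, and of lung epithelium NKX2-1 on all arrays and EPCAM on all parental ones. PTPRC, PECAM1 and SFTPC were detected on no array. Levels in a population of cells cannot separate fewer expressing cells from less RNA per cell.

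The ER is where secreted and membrane proteins fold. When unfolded proteins build up there, the sensors IRE1 (ERN1), ATF6 and PERK raise transcription of chaperones and degradation factors and slow translation, and a full response lifts HSPA5, HSP90B1, DNAJB9, SDF2L1, HYOU1 and HERPUD1 together. Fibroblast-like cells that secrete much collagen also lean on part of this machinery, among it P4HB, PPIB, FKBP14 and SEC24D.

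The genes of the set did not move as a block. Of the 27 tested genes 11 rose and 3 fell in the resistant cells (limma, Benjamini-Hochberg adjusted p under 0.05 over all genes), and under median scaling of the arrays, in place of quantile normalisation, 5 rose and 8 fell. Among all tested genes 45.3% were called, 22.3% higher and 23.0% lower, against 51.9%, 40.7% and 11.1% of the 27. The changes were small. The called genes moved by 1.17-fold to 1.86-fold and none reached 2-fold, and the median size of the log2 difference was 0.25 over the 27 genes and 0.27 over all tested genes. Each difference given is resistant minus parental in normalised log2 intensity (normexp background, quantile normalisation). Their median over the 27 genes was 0.06, beside -0.00394 over all tested genes. It was 0.14 without parental replicate 1, 0.13, 0.11 and 0.10 without resistant replicate 1, 2 and 3, and -0.12 under median scaling, which moved the median of all tested genes to -0.15. Relative to all genes the median was thus 0.07 under quantile normalisation and 0.03 under median scaling. The groups did not overlap for 18 of the 27 genes (66.7%), and for 56.0% of all tested genes.

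**Figure D1:**
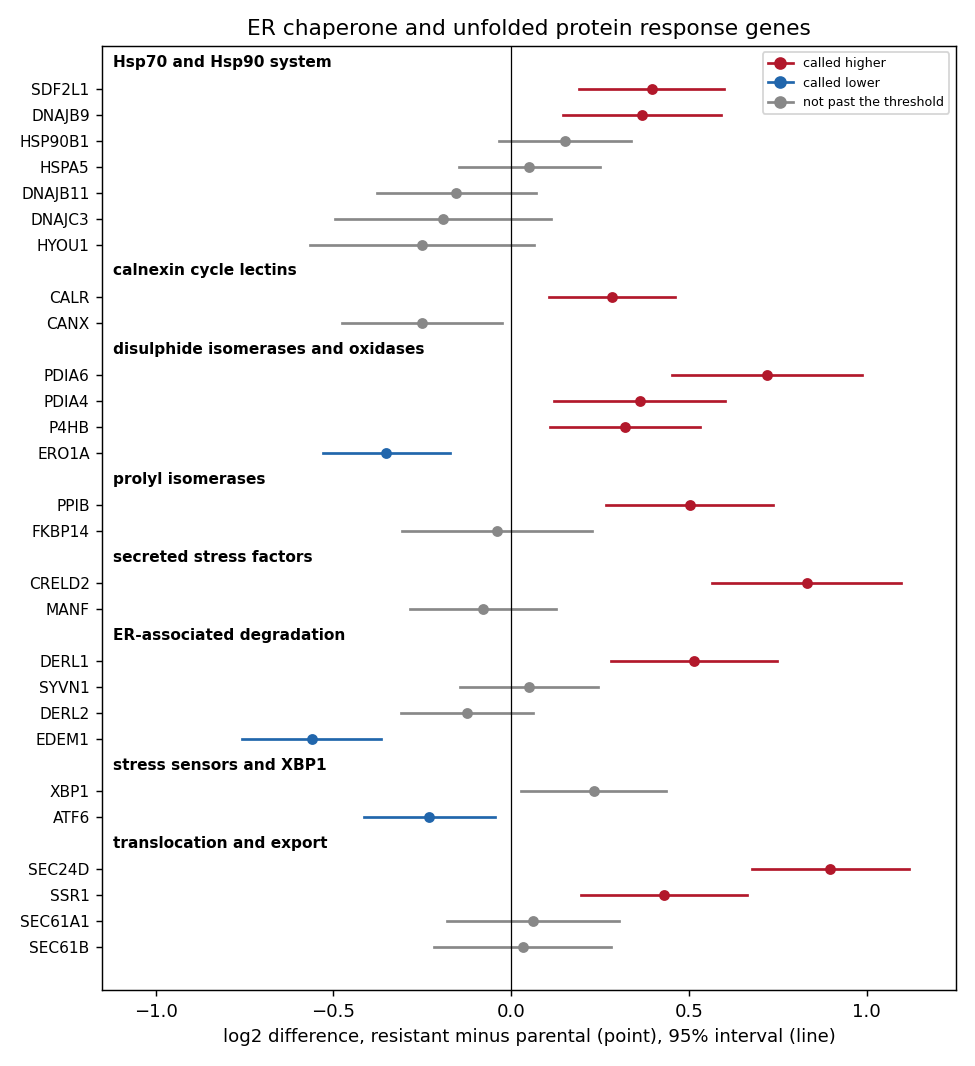
Log2 difference, resistant minus parental, of the 27 tested genes (point) with its 95% interval (line), ordered by role, after quantile normalisation with 3 arrays per group. The 11 red genes were called higher and the 3 blue genes lower, HSPA5 sits at 0.05, and genes called in both directions stand among the disulphide enzymes and among the degradation genes. Under median scaling 5 genes were higher and 8 lower.

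Both scalings gave the same call for 8 genes. SEC24D, CRELD2, PDIA6, DERL1 and PPIB were higher, and EDEM1, ERO1A and ATF6 lower, after quantile normalisation and after median scaling. The calls of DNAJB9, SDF2L1, CALR, PDIA4, P4HB and SSR1 were lost under median scaling, with limma adjusted p = 0.134, 0.106, 0.449, 0.106, 0.152 and 0.0583 in that order, and those of HYOU1, DNAJB11, CANX, MANF and DERL2 were gained there, all lower. Apart from ATF6, the 8 genes shared by both scalings kept their call in all 17 alternative settings. Under median scaling ATF6 was at -0.43, ERO1A at -0.53 and DERL1 at 0.32, and without background correction PPIB was at 0.32 and DNAJB9 at 0.23.

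**Figure D2:**
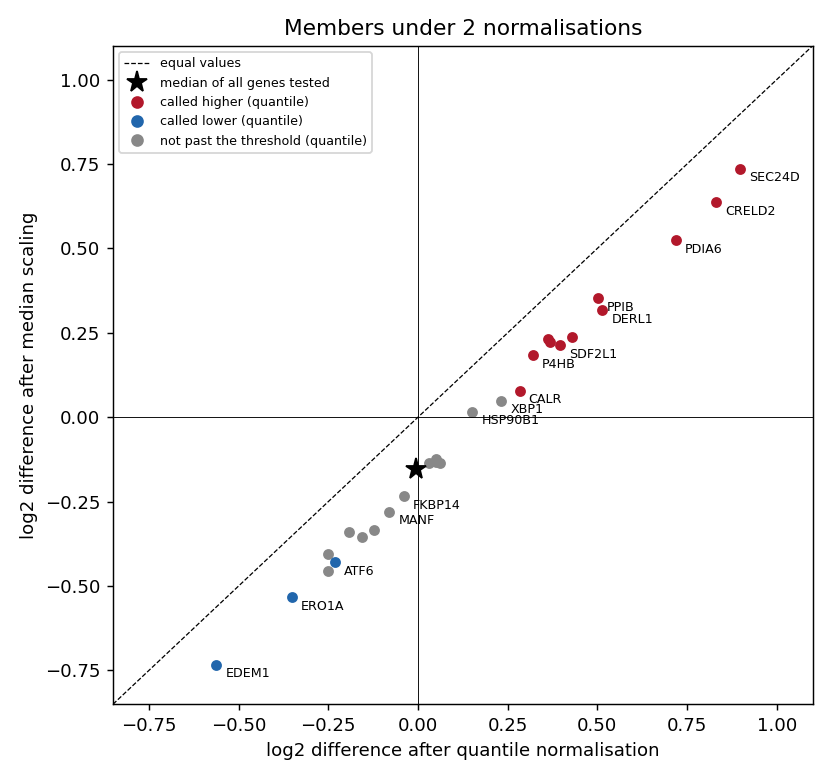
Log2 difference of each of the 27 tested genes after quantile normalisation (x axis) and after median scaling (y axis), with the median of all tested genes as a star. Every gene lies below the dashed line of equal values, as the star does, which moves from -0.00394 to -0.15.

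DNA elements through which ATF6 and XBP1 act are shown because the genes that carry them did not all give the same call. The ER stress response element (ERSE), which ATF6 binds together with the factor NF-Y, is CCAAT and CCACG with 9 free bases between them. ERSE-II is ATTGG and CCACG with 1 free base between them, and the core of the unfolded protein response element, here UPRE, is TGACGTGG. Each was searched on both strands of RefSeq promoter windows (GRCh38.p14, 250 bases before to 50 after each start site). Windows were given for 29 of the 33 genes, and not for SEC24D, DERL1, FKBP14 and PDIA3. The ERSE stood in 8 of these 29 genes (27.6%) and in 25 of all 27305 genes with a window (0.0916%). ERSE-II stood in 3 of the 29 (10.3%) and in 0.0696% of all genes, and the UPRE core in 1 of the 29 (3.45%) and in 0.927% of all genes. These elements were defined on promoters such as those of HSPA5 and HSP90B1, so their share among the 29 is no independent result. Their matches, read 5′ to 3′ along the motif with its fixed letters in capitals, were as follows, and the HYOU1 window also held a UPRE core that overlaps 1 of its 2 identical ERSE-II copies.
HSPA5, ERSE: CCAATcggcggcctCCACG
HSP90B1, ERSE, distal copy: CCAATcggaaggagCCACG
HSP90B1, ERSE, proximal copy: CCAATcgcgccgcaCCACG
CALR, ERSE: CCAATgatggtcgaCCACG
CANX, ERSE: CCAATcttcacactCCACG
CRELD2, ERSE: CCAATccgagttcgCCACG
PDIA6, ERSE: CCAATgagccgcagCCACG
XBP1, ERSE: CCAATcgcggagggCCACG
ERO1B, ERSE: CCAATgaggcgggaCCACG
SDF2L1, ERSE-II: ATTGGtCCACG
HYOU1, ERSE-II: ATTGGaCCACG
HERPUD1, ERSE-II: ATTGGgCCACG

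Of the 9 tested genes with at least 1 of these motifs, 4 rose (CALR, CRELD2, PDIA6 and SDF2L1), none fell and 5 did not pass the test. Under median scaling 2 of these 9 were higher (CRELD2 and PDIA6) and 2 lower (CANX and HYOU1). Of the 15 tested genes whose windows held none of them, 5 rose and 3 fell, and under median scaling 1 was higher and 6 were lower. SEC24D and DERL1, higher under both scalings, and FKBP14, uncalled under both, had no window and enter neither count. Among all tested genes the shares were 22.3% higher and 23.0% lower, and under median scaling 13.7% and 35.4%. As an uncalled and a called gene with the same element, the 250 bases before the start site of HSPA5 (chr9:125241344-125241593, minus strand) and of CRELD2 (chr22:49918384-49918633, plus strand) are shown with the fixed letters of the ERSE in capitals.
HSPA5: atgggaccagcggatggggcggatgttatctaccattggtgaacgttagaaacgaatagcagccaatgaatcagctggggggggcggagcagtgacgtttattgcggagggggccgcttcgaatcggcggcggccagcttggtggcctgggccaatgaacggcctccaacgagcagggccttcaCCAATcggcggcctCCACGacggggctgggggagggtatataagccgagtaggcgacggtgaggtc
CRELD2: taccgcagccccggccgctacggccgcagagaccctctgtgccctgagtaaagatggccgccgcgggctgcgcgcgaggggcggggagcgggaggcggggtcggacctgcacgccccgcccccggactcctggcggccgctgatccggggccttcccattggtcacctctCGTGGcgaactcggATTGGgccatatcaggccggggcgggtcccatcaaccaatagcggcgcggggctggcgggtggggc
Counted from the start site, the HSPA5 element spans positions -66 to -48 on the gene's strand and the CRELD2 element positions -80 to -62 in reverse orientation. A match is a run of letters and says nothing of occupancy in these cells.

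HSPA5, also called BiP, is the central Hsp70 chaperone of the ER and the usual gauge of ER stress. Its normalised log2 intensity was 8.45, 8.27 and 8.32 on the parental arrays and 8.47, 8.41 and 8.31 on the resistant arrays. The groups overlapped and the difference was 0.05 (95% interval -0.15 to 0.25, limma adjusted p = 0.660). HSP90B1, the Hsp90 of the ER, was at 12.43, 12.56 and 12.38 on the parental and at 12.62, 12.62 and 12.58 on the resistant arrays. Its groups did not overlap, but its difference of 0.15 (95% interval -0.03 to 0.34) was not past the threshold (limma adjusted p = 0.160).

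The partners of HSPA5 gave values of both signs, but neither scaling called them in both directions. DNAJB9, a J-domain co-chaperone that hands misfolded proteins to HSPA5, rose from 7.25 ± 0.14 to 7.62 ± 0.08 (SD, n = 3), a difference of 0.37 (SE 0.10, 1.29-fold, limma adjusted p = 0.0149), and SDF2L1, which works with the co-chaperone DNAJB11, rose from 10.03 ± 0.10 to 10.43 ± 0.09 (SD, n = 3), a difference of 0.40 (SE 0.09, limma adjusted p = 0.00780). Neither call held under median scaling. DNAJB11, HYOU1 and DNAJC3 gave values of -0.15, -0.25 and -0.19 without passing the test. HYOU1 is a nucleotide exchange factor for HSPA5, and its other probe gave -0.12, also short of the threshold. For DNAJC3, a J-domain co-chaperone, 2 resistant arrays stood at 6.86 and 6.99, below all parental arrays, and resistant replicate 3 at 7.36, and without that array the difference was -0.33 (limma adjusted p = 0.0366). SDF2L1 lies on chromosome 22, where its neighbours (up to 20 measured genes to either side) had a median difference of 0.46, with 24 of 40 called higher and 0 lower. DNAJB11 lies on chromosome 3 with a neighbour median of -0.27. The part of the neighbourhood in these values was not tested.

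Of the lectins that hold sugar-bearing proteins during folding, the soluble one gave a higher value and the membrane-bound one a lower value. CALR (calreticulin) was at 11.02 ± 0.03 on the parental arrays and at 11.31 ± 0.07 on the resistant arrays (SD, n = 3). The lowest resistant array, at 11.23, lay above the highest parental array, at 11.06, with a difference of 0.28 (SE 0.08, 1.22-fold, limma adjusted p = 0.0175). The call was lost under median scaling, without parental replicate 3 (adjusted p = 0.0609) and without resistant replicate 2 (adjusted p = 0.0622). CANX (calnexin) read 9.60, 9.63 and 9.57 on the parental and 9.47, 9.42 and 9.16 on the resistant arrays, a difference of -0.25 that did not pass the test (limma adjusted p = 0.0679) but passed it without resistant replicate 1 (adjusted p = 0.0467), under median scaling (adjusted p = 0.00459), without background correction (adjusted p = 0.0181), with an offset of 50 (adjusted p = 0.0386), with the deposited log2 values (adjusted p = 0.0156) and with the mean of its probes (adjusted p = 0.0486). Its second probe gave -0.18. CANX has a neighbour median of -0.31 on chromosome 5, whose part in the value was not tested.

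The disulphide isomerases tested in the set rose after quantile normalisation, while the tested oxidase fell. PDIA6, an isomerase that forms and breaks disulphide bonds, was at 9.31, 9.07 and 9.13 on the parental arrays and at 9.75, 9.81 and 10.10 on the resistant arrays. Every resistant array lay above every parental one, and the difference was 0.72 (SE 0.12, 1.65-fold, limma adjusted p = 0.00162). P4HB, both a disulphide isomerase and a subunit of the collagen prolyl 4-hydroxylase, rose by 0.32 (SE 0.09), and PDIA4, an isomerase with an additional active domain, rose by 0.36 (SE 0.10), or by 0.17 without background correction. ERO1A hands oxidising power to these isomerases. It read 8.55, 8.55 and 8.63 on the parental and 8.26, 8.27 and 8.14 on the resistant arrays, again without overlap, and fell by 0.35 in log2 intensity (SE 0.08, 1.28-fold, limma adjusted p = 0.00748). The 2 smaller rises were less secure than the PDIA6 and ERO1A changes. Besides median scaling, the P4HB call (limma adjusted p = 0.0217) was lost without parental replicate 2 and without resistant replicates 2 and 3 (adjusted p from 0.0567 to 0.0657), and the PDIA4 call (limma adjusted p = 0.0226) without parental replicates 2 and 3 and without resistant replicates 1 and 2 (adjusted p from 0.0529 to 0.0809).

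Prolyl isomerases turn peptide bonds next to proline, a slow step of collagen folding. PPIB (cyclophilin B) was at 7.18, 7.27 and 7.18 on the parental and at 7.86, 7.52 and 7.76 on the resistant arrays. It rose by 0.50 (SE 0.10, 1.42-fold, limma adjusted p = 0.00511). FKBP14, an isomerase with a part in collagen folding, depended on the probe. Its brighter probe (ILMN_2150294) overlapped between groups with a difference of -0.04 (limma adjusted p = 0.803), a sign that turned without parental replicate 1 (0.06) and without resistant replicate 2 (0.03). The second (ILMN_1665243) read 9.29, 8.89 and 9.08 on the parental and 8.69, 8.47 and 8.80 on the resistant arrays, lower by -0.44 (limma adjusted p = 0.0265 over 14197 probes). FKBP14 lies on chromosome 7 among genes of which 32 of 40 were called lower and 0 higher, with a median of -0.65, and what part this had in the values was not tested.

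CRELD2 and MANF are both released from cells under ER stress. CRELD2 was at 9.22, 8.89 and 9.18 on the parental arrays and at 9.78, 10.04 and 9.96 on the resistant arrays. It rose by 0.83 (SE 0.12, 1.78-fold, limma adjusted p = 7.78e-04) with a wide gap between the groups. MANF was at 11.44, 11.25 and 11.46 on the parental and at 11.25, 11.39 and 11.27 on the resistant arrays. Its groups overlapped, with a difference of -0.08 (95% interval -0.28 to 0.13, limma adjusted p = 0.497). Under median scaling its difference was -0.28 and passed the test (limma adjusted p = 0.0410). The surroundings of CRELD2 and MANF differed too. Neighbours of CRELD2 on chromosome 22 had a median of 0.50, with 26 of 38 called higher and 1 lower, whereas neighbours of MANF on chromosome 3 had a median of -0.31, with 2 of 40 higher and 19 lower. Whether neighbourhood contributed was not tested.

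**Figure D3:**
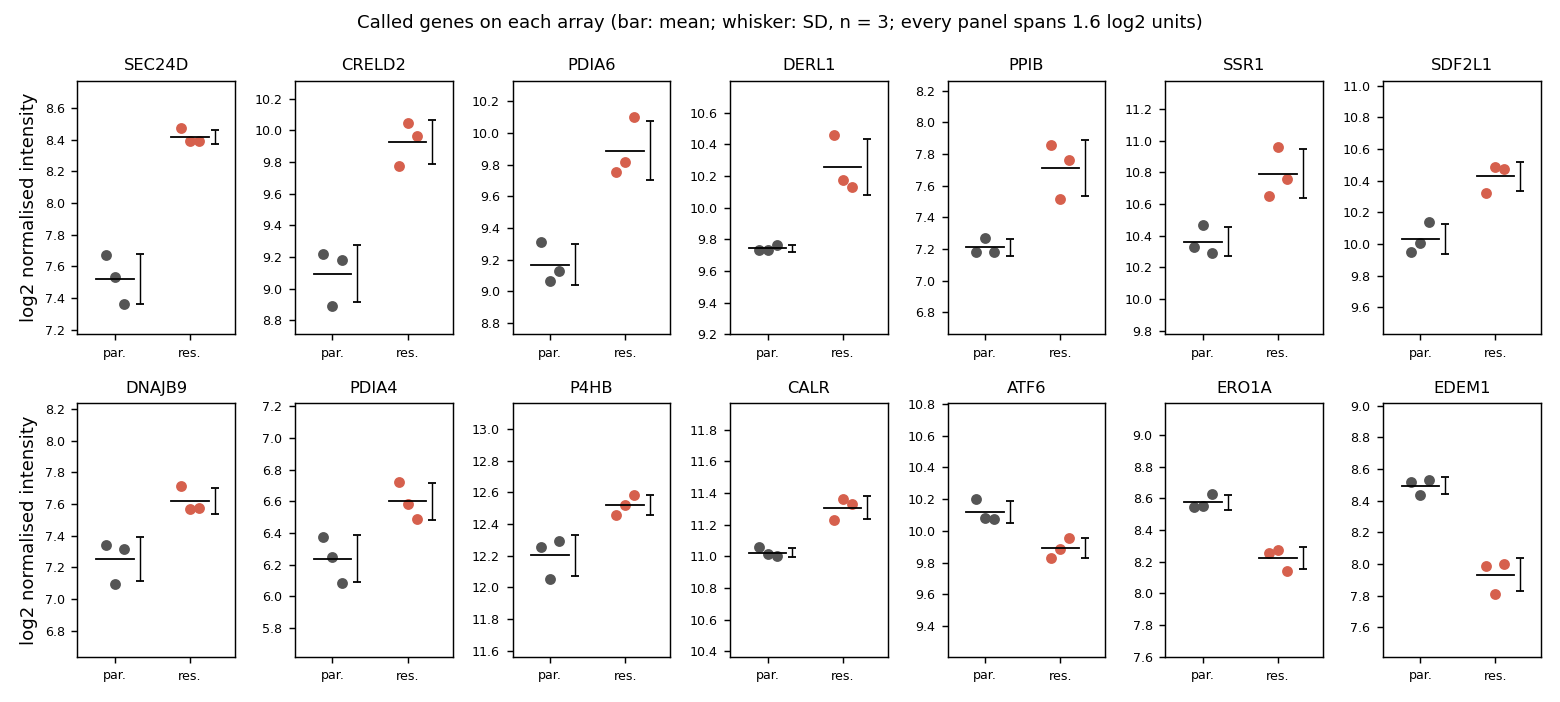
Normalised log2 intensity of the 14 called genes on each parental (par.) and resistant (res.) array, with group means (bars) and SDs (whiskers, n = 3). In each of the 14 panels the 3 resistant points lie wholly above or wholly below the 3 parental points. The panels run from SEC24D, up by 0.90, to EDEM1, down by 0.56, after quantile normalisation. The calls of DNAJB9, SDF2L1, CALR, PDIA4, P4HB and SSR1 did not hold under median scaling.

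Degradation genes were split. EDEM1 picks misfolded sugar-bearing proteins for removal and is a known XBP1 target. It was at 8.520, 8.435 and 8.530 on the parental and at 7.989, 7.813 and 7.998 on the resistant arrays, and fell by 0.56 in log2 intensity (SE 0.08, 1.48-fold, limma adjusted p = 0.00118). DERL1, part of the channel through which such proteins leave the ER, was at 9.73, 9.73 and 9.76 on the parental and at 10.46, 10.18 and 10.13 on the resistant arrays, and rose by 0.51 (SE 0.10, 1.43-fold, limma adjusted p = 0.00432). Both genes had groups that were far apart. DERL2, a relative of DERL1, gave -0.12, and its other probe gave 0.03. SYVN1, the ubiquitin ligase HRD1 at the centre of this route, gave 0.05 (95% interval -0.14 to 0.24). None of these values was past the threshold. SEL1L, which holds SYVN1 in place, was detected on 1 array of each group and was not tested. Neighbours of EDEM1 on chromosome 3 had a median of -0.30, with 16 of 28 called lower, and those of DERL1 on chromosome 8 a median of 0.30, with 19 of 40 called higher. Their part was not tested.

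Of the sensors in the set, ATF6 alone was measured. ATF6, which is cut in the Golgi to release a transcription factor, read 10.20, 10.08 and 10.07 on the parental and 9.83, 9.88 and 9.95 on the resistant arrays. It fell by 0.23 in log2 intensity (SE 0.08, 1.17-fold), just past the threshold (limma adjusted p = 0.0459). That call was lost without each of the 6 arrays in turn (adjusted p from 0.0556 to 0.151), with the replicate number as a block (adjusted p = 0.0904) and when probes rather than genes were adjusted over (adjusted p = 0.0545). ERN1 (IRE1), the kinase and nuclease that splices XBP1 RNA, was detected on no array. XBP1, the factor made from the spliced RNA, read 10.44, 10.36 and 10.52 on the parental and 10.68, 10.57 and 10.77 on the resistant arrays with its brighter probe. That probe gave a difference of 0.23 (limma adjusted p = 0.0627) and the other probe of XBP1 0.23 as well (limma adjusted p = 0.0413 over probes), both without overlap between groups. XBP1 passed the test without background correction, with an offset of 50, with the deposited log2 values and with the mean of its probes (adjusted p from 0.0128 to 0.0367). Around XBP1 on chromosome 22, 25 of 40 measured genes were called higher and 1 lower, with a median of 0.48, and their part was not tested. Splicing of XBP1 and cutting of ATF6, the steps that switch these factors on, are not read by the level of a transcript.

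**Figure D4:**
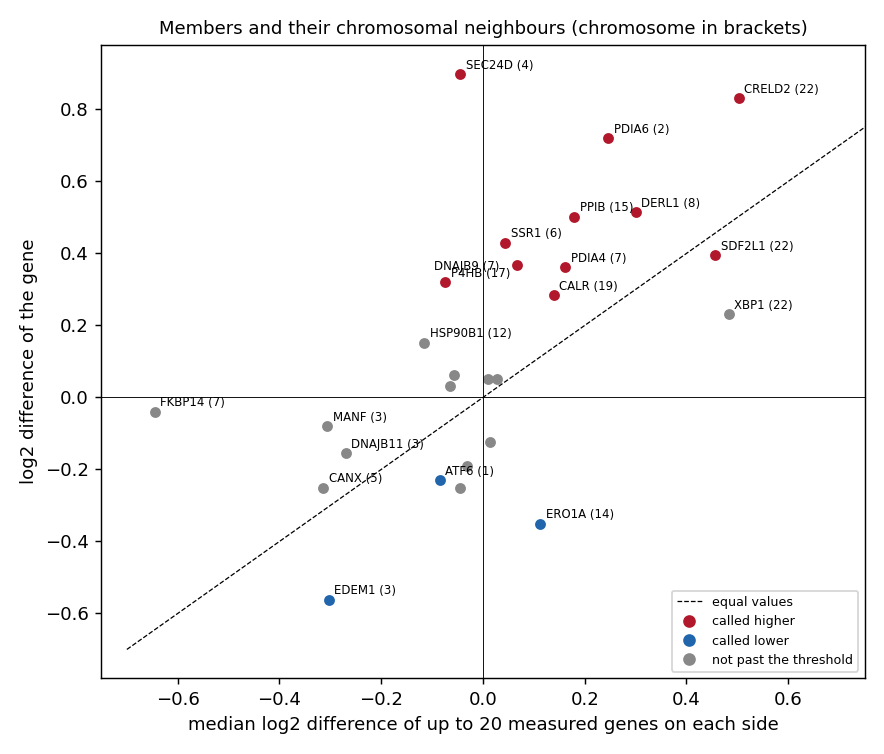
Log2 difference of each of the 27 tested genes (y axis) against the median difference of up to 20 measured genes on each side of it (x axis), with the chromosome in brackets for called genes and those with a neighbour median over 0.1 in size. The 3 genes on chromosome 22 sit at neighbour medians from 0.46 to 0.50 and FKBP14 at -0.65, while SEC24D, with a rise of 0.90, sits at -0.04.

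At the ways in and out of the ER, the channel gave no change past the threshold and an export adaptor rose. SEC24D, a subunit of the COPII coat that picks cargo for vesicles leaving the ER and is needed for collagen export, was at 7.67, 7.53 and 7.36 on the parental and at 8.47, 8.39 and 8.39 on the resistant arrays. The groups were far apart and the difference was 0.90 (SE 0.10, 1.86-fold, limma adjusted p = 2.10e-04). SSR1, part of the complex that helps signal peptides into the channel, rose by 0.43 (SE 0.10, 1.35-fold, limma adjusted p = 0.00995). SEC61A1 and SEC61B, subunits of the channel itself, gave 0.06 (95% interval -0.18 to 0.30) and 0.03 (95% interval -0.22 to 0.28). Over the 13 genes of the list that did not pass the test the 95% intervals, each taken alone, ran from -0.57 at the lowest to 0.44 at the highest.

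Counting probes in place of genes, 12 of the 32 tested probes were called higher and 3 lower, beside 20.8% and 21.8% of 14197 named probes tested (42.6% in either direction). Under median scaling 4 were higher and 9 lower, and 7 were higher without parental replicate 2. PDIA3, ERP44, ERN1, ERO1B and SEL1L rested on dim probes and were not tested. For PDIA3, a disulphide isomerase that works with the lectins, the only probe lay between 4.38 and 4.60 on all arrays and was detected on none. Both probes of ERP44, which returns proteins to the ER, and the probe of ERN1 were also detected on no array. ERO1B, a further oxidase, had 2 probes, detected on 1 and 2 parental arrays and on 1 resistant array each. SYVN1 was tested with its brighter probe, and its other probe, detected on 1 array of each group, was not tested. A dim probe does not show that a gene is silent.

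The surrounding machinery was read from a further list of 147 ER genes, of which 133 were tested. Of these 35 rose and 25 fell, a called share of 45.1%, close to that of all tested genes, and under median scaling 18 rose and 46 fell. Among folding enzymes and chaperones 13 of 38 rose and 3 fell. CALU, a calcium-binding protein of the secretory route, rose by 0.73 (SE 0.11), SERPINH1, the collagen chaperone HSP47, by 0.70 (SE 0.07) and DNAJC10, a disulphide reductase, by 0.63 (SE 0.08). The prolyl isomerase FKBP11 fell by 2.88 in log2 intensity (SE 0.12, 7.37-fold, limma adjusted p = 1.85e-06). The size of this fall depended on the background correction. FKBP11 was dim on the resistant arrays, at 5.09, 5.48 and 5.17, and its difference was -2.12 with an offset of 50, -1.51 with the deposited log2 values and -1.45 without correction, past the threshold in each. TXNDC12, a small thioredoxin-like protein, fell by 0.42, and TMX4, a membrane-bound relative, also fell by 0.42, a call lost without parental replicates 1 and 2 and resistant replicates 1 and 3 (adjusted p from 0.0614 to 0.113), without the detection filter (adjusted p = 0.0783) and with array weights (adjusted p = 0.0513). TMX4 has chromosome 20 neighbours with a median of -0.36, 24 of 40 of them called lower.

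Degradation and translocation genes of the further list went both ways. Of 24 degradation genes 6 rose and 7 fell. FAM8A1, a partner of SYVN1, rose by 0.86 and the mannosidase MAN1B1 by 0.80, both past the threshold under both scalings, and UBXN4, which docks the segregase VCP, by 0.58. FAM8A1 and UBXN4 have neighbour medians of 0.37 and 0.34, and without background correction FAM8A1 gave 0.48 and HERPUD2 -0.49. HERPUD2, a relative of HERPUD1, fell by 0.83 among chromosome 7 neighbours with a median of -0.64, the ubiquitin-conjugating enzyme UBE2J1 fell by 0.56 and the deglycosylase NGLY1, with a neighbour median of -0.25, fell by 0.43. Of 30 translocation and glycosylation genes 4 rose and 7 fell. TRAM2, a translocation factor linked to collagen synthesis, rose by 0.95 (SE 0.08, limma adjusted p = 8.00e-05), whereas SPCS3 of the signal peptidase fell by 0.64 (-0.41 with the mean of its probes), SSR3, the gamma partner of SSR1, fell by 0.40 with a neighbour median of -0.26, and TUSC3 of the oligosaccharyltransferase fell by 0.39 among chromosome 8 neighbours with a median of -0.73. The TUSC3 call was lost when the mean of its kept probes was used (adjusted p = 0.0522). SRPRA and OSTC gave rises of 0.28 and 0.29 that were lost under median scaling (adjusted p = 0.449 and 0.282) and without 4 of the 6 arrays each. These were parental replicates 1 and 2 and resistant replicates 1 and 2 for SRPRA (adjusted p from 0.0833 to 0.106), and parental replicates 1 and 3 and resistant replicates 1 and 2 for OSTC (adjusted p from 0.0520 to 0.111).

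Receptors that bring escaped chaperones back to the ER were among the rises. KDELR3 read the largest rise of the further list, 1.56 (SE 0.08, 2.96-fold, limma adjusted p = 4.17e-06), with chromosome 22 neighbours at a median of 0.42, and KDELR1 rose by 0.45 (SE 0.09), or by 0.26 under median scaling. Of 22 export and return genes 6 rose and 2 fell. The cargo receptor SURF4 rose by 0.45, a call lost under median scaling (adjusted p = 0.0733). SAR1B and SEC23B, a form of the GTPase and an inner coat subunit of COPII, fell by 0.46 and 0.44. SEC23A, the other form of that inner coat subunit, gave a rise of 0.25 (limma adjusted p = 0.0254). SAR1A, the other form of the GTPase, gave -0.09 (limma adjusted p = 0.560), short of the threshold. Both are named here after their values were seen, and neither was followed over the alternative settings.

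Among 19 further regulators 6 rose and 6 fell. EIF2AK3 (PERK), the sensor that slows translation, rose by 0.73 (SE 0.11, 1.65-fold, limma adjusted p = 0.00125). The size of the EIF2AK3 rise was 0.51 with an offset of 50, 0.34 with the deposited log2 values and 0.33 without background correction, past the threshold in each. The transcription factor ATF4 fell by 0.65 in log2 intensity (limma adjusted p = 4.56e-04). It is named here after its value was seen and was not followed over the alternative settings. The other named falls among these regulators were of genes that can act downstream of PERK, among other stress signals. Which signal they followed was not tested. These were DDIT3 (CHOP), a death-linked transcription factor, which fell by 0.95 in log2 intensity (SE 0.08, and -0.62 without background correction), PPP1R15A (GADD34), which restores translation and fell by 0.69 (SE 0.08), and the pseudokinase TRIB3, which fell by 2.85 among chromosome 20 neighbours with a median of -0.54. CREB3L2, an ER-bound factor related to ATF6 that drives secretory genes in mouse cartilage, rose by 1.01 (SE 0.12, limma adjusted p = 3.35e-04), and TXNIP, a thioredoxin-binding protein, rose by 1.51 (SE 0.09).

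**Figure D5:**
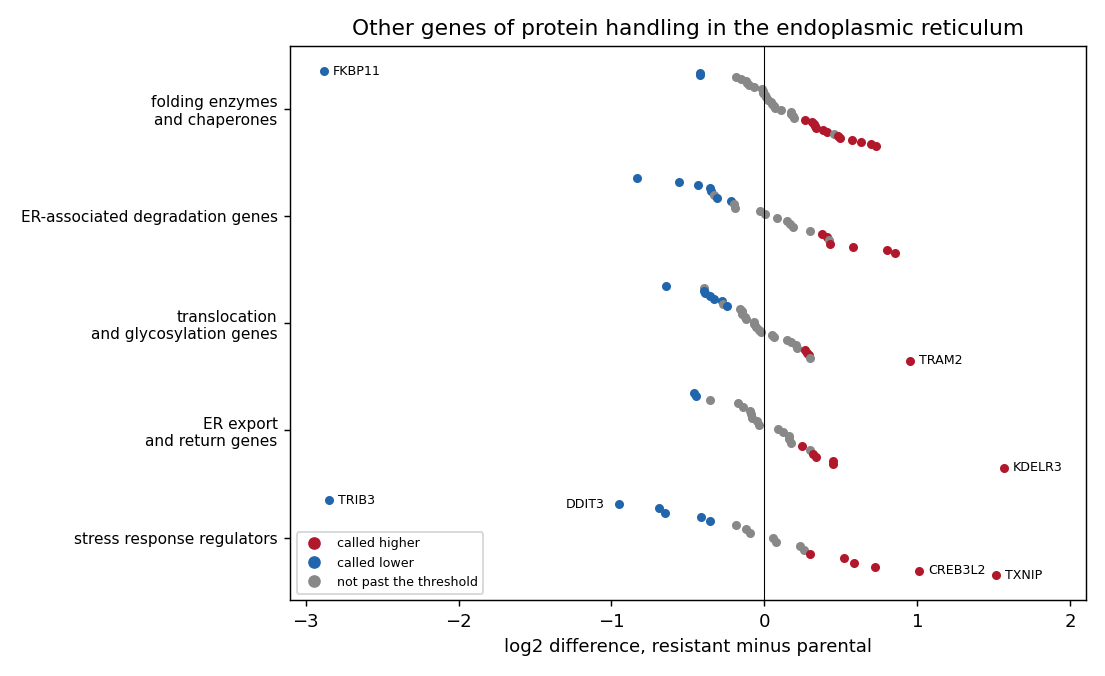
Log2 difference, resistant minus parental, of the 133 tested genes of the further list, 1 point a gene, in rows by role, with the genes beyond 0.9 in size that the naming rule picked out labelled. FKBP11 and TRIB3 stand alone on the left at -2.88 and -2.85, and KDELR3 and TXNIP on the right at 1.56 and 1.51, after background correction and quantile normalisation, and without background correction FKBP11 is at -1.45 and TRIB3 at -2.49. Under median scaling 18 genes of the 133 were higher and 46 lower.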

How the data were processed

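Per the labels' protocols, total RNA was extracted with a column kit and labelled with biotin as cRNA for Illumina arrays. Per the file headers, the deposited table gives 1 intensity and 1 detection p-value per probe and array, with no normalisation named. In 3269 consecutive rows the columns were exchanged and the intensity given as a natural log, and these deposited rows were restored (1 of the 40 probes, for DERL2). Restored intensities rank as do the authors' log2 values (rank correlation 1), deposited in another table without a stated method.

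Intensities were corrected with normexp from the detection p-values (offset 16), then quantile normalised as log2 values (neqc, limma 3.58.1, R 4.3.3). Each gene was represented by its brightest kept probe. Symbols are those of the platform annotation, brought up to GRCh38.p14, which pairs 30111 of 47225 probes with 1 gene, pairs 8 with several (not used) and does not list 17106. Groups, taken from the titles, were compared with lmFit and eBayes, two-sided, adjusted by Benjamini-Hochberg over 10672 genes, threshold 0.05. Replicate numbers did not pair the arrays (correlations of deviations from -0.07 to 0.05). Neighbours are up to 20 tested genes on each side by gene order, without members, and are printed for members where their median exceeds 0.25 in size. All members are named, and from each further list up to 3 called genes per direction with the largest change and no overlap. Members and lists were chosen with earlier results of these data known. The functions were tested on simulated data. There 34 of 67 tested changes of 1.5-fold were recovered, 62 of 66 of 2-fold and 54 of 62 of 4-fold. Of 10813 unchanged genes 13 were called. The number of arrays limits precision.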

Additional observations from a re-analysis of the deposited data

How the results depend on the processing

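Counts and medians were recomputed under 17 alternatives. Median scaling changed most. It gave 5 members higher and 8 lower, 4 and 9 of their probes, 18 and 46 of the further ER genes and 1466 and 3774 of all genes (2384 and 2454 with quantile normalisation), and a members' median of -0.122. It also turned the sign of uncalled HSPA5 (-0.13), SYVN1 (-0.12), SEC61A1 (-0.13) and SEC61B (-0.14). Array weights turned SEC61B (-0.0345). Probes called lower were 5 without background correction, with an offset of 50 and with the deposited log2 values. Cyclic loess gave a members' median of 0.0855. Without each array in turn this median ran from 0.0555 to 0.138, members called higher from 8 to 11 and lower from 2 to 3, probes called higher from 7 to 9 and lower from 2 to 4, and signs turned for FKBP14 (from -0.109 to 0.0627), SEC61A1 (from -0.00726 to 0.139) and SEC61B (from -0.0480 to 0.110). With the replicate block 11 members were higher and 2 lower, ATF6 losing its call, and 10 and 3 of their probes. Of the 14 called members 7 kept their call in every alternative. Causes were not tested. Without the detection filter 32 members were tested, with 11 higher and 2 lower. The 5 dim members, whose signal over background was too low, are not measured here.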
